A study of Homo sapiens with 14 samples.

Results

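The regions described here were 12023 open-chromatin peaks of MM.1S, a human multiple myeloma (MM) cell line, found in only 3 to 6 of the 9 MM.1S libraries. None of these peaks overlapped one in the peak list of RPMI8226, the other MM line studied. They made up 17.0% of the 70840 MM.1S peaks on chromosomes 1 to 22, from a list of 72802 peaks in all, and 48.0% of the 25070 MM.1S peaks with no overlapping peak among the 79969 of RPMI8226. Open chromatin was mapped by Omni-ATAC, in which a transposase cuts and tags accessible DNA, in MM cells grown alone (MONO), in the upper transwell above HS5 bone marrow stromal cells (TSW), or in the lower chamber together with HS5 cells (CO). The membrane of the transwell lets soluble factors through and keeps the cells apart. MM.1S had 3 MONO, 3 TSW and 3 CO libraries, and RPMI8226 had 1 MONO, 2 TSW and 2 CO libraries. Both are single established lines and so is HS5, which bounds what the cultures can stand for. The labels gave no genetic change or drug for any group. Each peak list kept only peaks found in at least 3 libraries of its line. A region open in fewer RPMI8226 libraries could therefore still count as MM.1S-only, meaning without an overlapping RPMI8226 peak.

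Each peak carried a single whole number, read here as its support, the number of MM.1S libraries in which it was present. The members were selected on that number and on their position. The 6 coculture libraries (TSW and CO) could by themselves give a support of up to 6, whereas a support of 7, 8 or 9 requires at least 1 MONO library. A member could therefore lack every MONO library, but the list does not say which libraries held a peak, and a member of support 3 could as well be present in the 3 MONO libraries alone. The lists hold no value for a single library, so no condition was compared with another. They give no depth either. Read totals are in the study's supplement and were not used here, but they bear on support, because a MONO library of MM.1S was far shallower than the other MM.1S libraries and a shallow library can miss peaks. The part of depth in a support of 3 to 6 was not tested. The 13047 MM.1S-only peaks of support 7 to 9 served as the comparison (called high-support peaks), and the 7562 MM.1S peaks of support 3 to 6 that RPMI8226 shared served as another (low-support shared peaks).

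Accessible regions mark promoters, where transcription starts, and distal elements such as enhancers, which bind transcription factors and act on genes over long distances. Promoters tend to be open in many cell types, and distal elements are more often particular to a cell type or state. Among the factors that stromal signals are known to engage in myeloma are STAT proteins downstream of IL-6, NF-kB, and the AP-1 and CEBP families, whose binding sites are short DNA words.

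Sequences of 7 members are given because they come from runs of closely spaced members and hold a word of the AP-1, ATF::CEBP, STAT or cyclic AMP response element (CRE) families. They were chosen after the values were seen. Each is the central 200 bases of the peak on the plus strand of hg38, 5′ to 3′, with the matched word in capitals, which may be the reverse complement of the consensus. The words searched were TGACTCA for AP-1, TGATGNAA for ATF::CEBP, TTCCNGGAA for STAT and TGACGTCA for CRE, on both strands, and none of the 4 contains another. A match is a description of the letters and not evidence of binding.
AP-1 word, intergenic, between CEBPB and PTPN1, chr20:50423317-50423516, support 5: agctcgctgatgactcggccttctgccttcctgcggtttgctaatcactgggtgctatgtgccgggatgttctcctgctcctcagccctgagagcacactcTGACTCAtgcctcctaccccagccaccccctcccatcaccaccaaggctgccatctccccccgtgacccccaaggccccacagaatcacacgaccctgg
CRE word, intergenic, between CEBPB and PTPN1, chr20:50415607-50415806, support 5: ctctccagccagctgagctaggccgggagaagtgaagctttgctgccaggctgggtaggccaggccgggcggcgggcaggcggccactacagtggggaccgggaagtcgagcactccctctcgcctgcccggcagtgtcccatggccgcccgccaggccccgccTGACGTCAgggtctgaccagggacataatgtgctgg
STAT word, intergenic, between CEBPB and PTPN1, chr20:50382283-50382482, support 5: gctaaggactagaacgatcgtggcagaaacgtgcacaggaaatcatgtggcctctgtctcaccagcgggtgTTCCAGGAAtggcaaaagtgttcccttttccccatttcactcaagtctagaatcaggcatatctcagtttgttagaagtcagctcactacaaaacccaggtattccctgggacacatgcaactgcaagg
AP-1 word, intergenic, near GATA5, chr20:62523858-62524057, support 3: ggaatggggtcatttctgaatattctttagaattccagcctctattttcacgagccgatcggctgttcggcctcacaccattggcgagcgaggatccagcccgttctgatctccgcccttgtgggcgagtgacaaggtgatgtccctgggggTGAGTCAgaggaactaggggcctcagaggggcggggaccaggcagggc
AP-1 word, intron of RHOH, chr4:40227386-40227585, support 3: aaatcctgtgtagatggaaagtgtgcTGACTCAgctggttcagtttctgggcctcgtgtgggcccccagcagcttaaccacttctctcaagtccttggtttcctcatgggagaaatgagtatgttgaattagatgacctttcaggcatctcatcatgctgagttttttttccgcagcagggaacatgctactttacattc
ATF::CEBP word, intron of MEF2C, chr5:88819567-88819766, support 6: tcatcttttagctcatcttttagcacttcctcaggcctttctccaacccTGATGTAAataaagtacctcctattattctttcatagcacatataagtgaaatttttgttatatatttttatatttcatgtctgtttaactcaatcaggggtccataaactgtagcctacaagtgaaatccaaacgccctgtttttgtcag
ATF::CEBP word, intron of IKZF1, chr7:50330647-50330846, support 5: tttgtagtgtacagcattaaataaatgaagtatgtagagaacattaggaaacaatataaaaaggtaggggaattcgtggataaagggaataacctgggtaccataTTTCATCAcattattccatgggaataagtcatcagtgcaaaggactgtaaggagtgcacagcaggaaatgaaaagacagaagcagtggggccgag
Among all 43098 distal MM.1S peaks, the same central window held the AP-1 word in 9.21%, the ATF::CEBP word in 3.72%, the STAT word in 0.601% and the CRE word in 0.239%.

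The members were scattered over the genome, with a few dense runs. Successive members at most 20 kb apart were joined, and 39 runs of 5 or more members arose, which held 227 members or 1.89% of them. The same joining gave 23 runs of high-support peaks, with 139 peaks or 1.07% of that class. Of the 39 runs, 15 had no high-support peak inside, and 6 had no other MM.1S peak at all. In 19 runs there were 6 members or more. These counts are descriptions, since support chose the members.

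The longest run lay on chromosome 20, from 62412557 to 62536243, and held 14 members across RBBP8NL and GATA5, which encodes a zinc finger transcription factor of the heart and gut. Of the 14, 8 had support 3, 2 had support 4 and 4 had support 5. Their widths ran from 245 to 749 bp. In location 6 were intergenic, 3 intronic, 2 exonic and 3 at a promoter, meaning within 2500 bp of any annotated start site, and the run also enclosed 4 high-support and 5 shared peaks. The AP-1 word near GATA5 shown above lies in a member 47963 bp from the start site of GATA5. Low-support peaks there thus sat among peaks of every class.

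An intergenic stretch between CEBPB and PTPN1 held 6 members and no other MM.1S peak. CEBPB encodes a transcription factor of the acute-phase and stress response, and PTPN1 a tyrosine phosphatase that acts on JAK kinases. The run spanned 41.3 kb on chromosome 20, from 50382220 to 50423537, and its members lay 192 to 233 kb downstream of the CEBPB start site and 86904 to 127938 bp from that of PTPN1. From the CEBPB side their support was 5, 3, 6, 5, 4 and 5, and their widths were 327, 417, 479, 471, 372 and 241 bp. The STAT word was in the member nearest to CEBPB, the CRE word in the fourth and the AP-1 word in the one farthest from it. RPMI8226 had 1 peak inside the stretch, which overlapped none of the 6.

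At ITGB2, the β2 integrin chain of leukocyte adhesion receptors, 7 members lay within 42.6 kb of chromosome 21, from 44890478 to 44933086. The widest member, 1258 bp at support 6, covered the start site itself. Upstream of it lay members of support 4 and 6, and downstream members of support 4, 4, 3 and 4. The regulatory domain of ITGB2, the stretch around its canonical start site extended by up to 1 Mb towards the neighbouring genes, had 11 MM.1S peaks, of which 7 were members, 4 were shared and 0 were high-support. At its promoters it had 5 members and 3 shared peaks.

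IKZF1, a lymphoid zinc finger factor, had 6 members over 57.5 kb of chromosome 7, from 50312202 to 50369711. Of these 5 were intronic and 1 was at the promoter of an internal start site. In contrast to ITGB2, they were interleaved with 4 high-support peaks, and neither a shared peak nor any peak of RPMI8226 fell inside. Support was 4, 5, 6, 4, 4 and 3 from the 5′ end of the gene, and the ATF::CEBP word shown above was in the member of support 5.

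MEF2C, a MADS-box factor of B cells and muscle, had 7 members within 26.4 kb of chromosome 5, from 88808234 to 88834665, 5 of them intronic and 2 at a promoter of an internal start site. Of the 7, 4 had support 5, and the others had support 3, 4 and 6. The regulatory domain of MEF2C as a whole held 16 members against 8 high-support and 26 shared peaks. At RHOH, which encodes a GTPase of blood cells, 6 members spread over 63.8 kb of chromosome 4 alongside 3 high-support and 3 shared peaks.

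**Figure D1:**
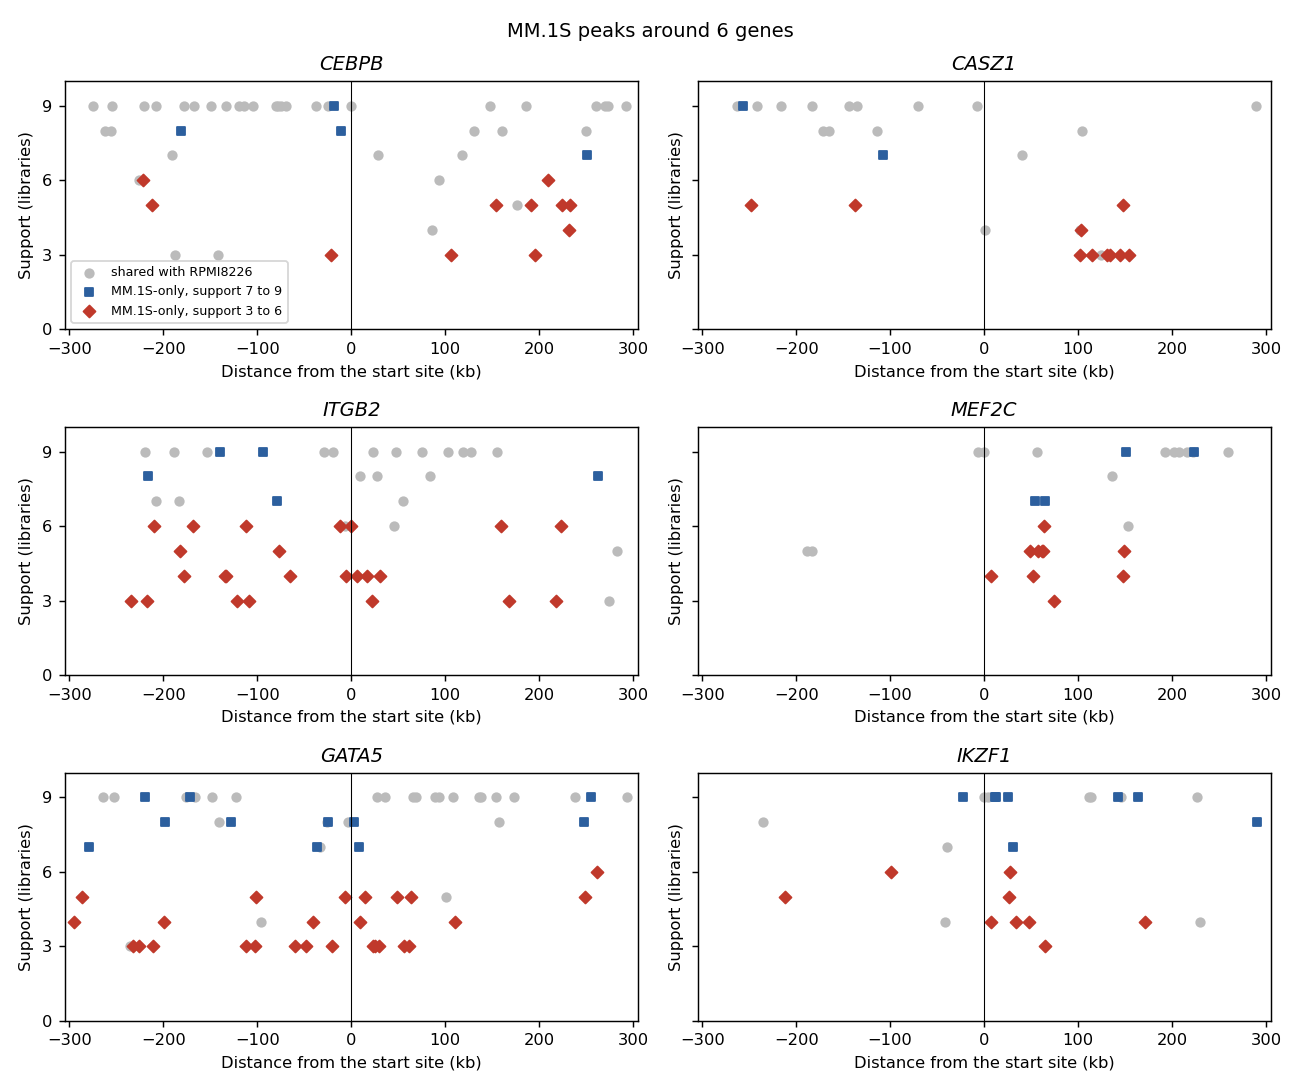
MM.1S peaks within 300 kb of the canonical start sites of 6 genes, by distance from the start site in kb (x axis, downstream to the right) and support in libraries (y axis). Red diamonds are the members, blue squares high-support MM.1S-only peaks and grey circles peaks shared with RPMI8226. The 6 intergenic members downstream of CEBPB stand at 192 to 233 kb with no other MM.1S peak between them, and those at IKZF1 are interleaved with 4 high-support peaks.

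Other dense runs lay inside single genes. CASZ1, a zinc finger factor, held 8 members over 53.4 kb of chromosome 1, of which 6 had support 3 and 6 were at a promoter, with 0 high-support and 3 shared peaks among them. CAMK2B, a chain of calcium/calmodulin kinase, held 7 members over 57.1 kb of chromosome 7, of which 5 had support 3 and 5 were at a promoter. MYT1, a neural zinc finger factor, held 6 intronic members and COL18A1, a basement membrane collagen, 5 intronic members and 1 at a promoter. The runs in PTPRN2, COBL and WWOX, long genes of neurosecretory vesicles, actin nucleation and a fragile site, each had 6 intronic members. All 6 members from PRMT1, an arginine methyltransferase, to CPT1C on chromosome 19 were at a promoter, and no other MM.1S or RPMI8226 peak lay among them. At MIR4435-2HG, a long non-coding RNA gene, 6 members lay 320 to 358 kb downstream of the start of BCL2L11, which encodes the death-promoting protein BIM. Runs of 6 also lay at NPTX1, which encodes a neuronal pentraxin, and at CCDC188 and RTN4R on chromosome 22. The remaining 2 were on chromosome 4 from 49094588 to 49137300 and on chromosome 21 from 9328862 to 9370097, close to the centromere, where near-identical copies of sequence make read placement less certain. They are reported as uncertain.

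Assigned by distance, the members reached many genes but few promoters. Of 19103 protein-coding genes, 9377 (49.1%) had at least 1 member in their regulatory domain. At a promoter, 1881 genes (9.85%) had a member, and for 432 genes (2.26%) members were the only MM.1S peaks there. A long domain collects more peaks of every kind, so a count of members alone does not set a gene apart.

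The genes with most members in their domain were led by PTPRN2, a phosphatase-like membrane protein, with 20 members against 9 high-support and 17 shared peaks. GALNT17, a glycosyltransferase, had 18 and FOXA2, a forkhead factor of gut and lung, had 17. PFKP, the platelet form of phosphofructokinase, had 17 as well, and TMEM132C had 15. CWH43 also had 15, all on chromosome 4 between 49094588 and 49639473, near the centromere, so that its count shares the uncertainty of the run there. All of these had domains over 1 Mb long. ADARB1, an RNA-editing deaminase, was shorter and denser: its domain of 346 kb held 28 MM.1S peaks, of which 15 were members, 4 high-support and 9 shared. COBL went the other way, with 15 members against 20 high-support peaks, and so did CSMD1, a cell surface complement regulator, with 15 against 17.

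At promoters, CAMK2B led with 6 members, and CASZ1 and ITGB2 had 5 each. CD81, a tetraspanin of the B cell coreceptor, had 4 members at its promoters with 1 high-support and 0 shared peaks. EPS8L2, MEF2C, PRMT1 and SVIL also had 4 each, and several genes were tied at 3. Most of these genes have several annotated start sites, which widens the window in which a peak counts.

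Members' share of the peaks differed from one gene list to another. Members were 17.6% of all MM.1S peaks over the domains of the 19103 genes, counted once for each gene. For 20 genes of IL-6, JAK and STAT signalling they were 13.5% (29 of 215 peaks), and for 20 of NF-kB and TNF signalling 11.0% (23 of 209). For 26 stromal marker genes they were 22.5% (60 of 267), and for 22 chemokine and chemokine receptor genes 21.4% (36 of 168). The shares were 18.9% for AP-1 and stress factors, 18.3% for hypoxia and angiogenic factors, 16.5% for plasma cell markers, 15.5% for the B cell programme, 14.6% for adhesion to stroma, 14.0% for the BCL2 family and 12.7% for genes the study named. In every list at least as large a share of genes had a member as among all genes (49.1%), and in number of MM.1S-only peaks 5041 of all genes had more members and 5568 more high-support peaks. The length of a domain varies from gene to gene and was not taken into account, so these counts say nothing particular to a list. No list was tested, because peaks of 1 gene are not independent and the lists were chosen with earlier results known.

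Within IL-6, JAK and STAT signalling, 14 of 20 genes had a member, 4 had more members than high-support peaks and 7 had fewer. IL6ST, the gp130 chain of the IL-6 receptor, had 7 members against 3 high-support peaks. The 7 lay from 133 kb upstream to 101 kb downstream of its start site, with 3 of support 3. JAK2, the kinase that gp130 activates, had 4 members and no high-support peak, the nearest 5.82 kb upstream at support 5. SOCS3, a feedback inhibitor of this pathway, had 1 member against 4 high-support peaks.

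For AP-1 and stress factors, 13 of 19 genes had a member, 4 had more members than high-support peaks and 7 had fewer. CEBPB had 9 members, 3 high-support and 17 shared peaks. FOSL2, an AP-1 subunit, had 5 members against 1 high-support peak, including 1 of support 4 at 0.701 kb from its start site. FOS, another AP-1 subunit, had 4 members and 0 high-support peaks, all downstream at 17.3, 24.8, 29.1 and 85.2 kb and of support 6, 5, 5 and 6. JUN, the partner of FOS, went the other way with 4 members against 7 high-support peaks, as did FOSB with 0 against 2, MAFF with 2 against 3 and CEBPD with 1 against 2.

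For NF-kB and TNF signalling, 10 of 20 genes had a member, 4 had more members than high-support peaks and 13 had fewer. TNFAIP3, an inhibitor of the pathway, had 10 members, 12 high-support and 23 shared peaks. NFKB1, which encodes the p50 subunit, had 0 members and 5 high-support peaks. NFKB2 and REL, which encode other subunits, had 2 members each and no high-support peak.

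Among adhesion genes, 13 of 20 had a member, 3 had more members than high-support peaks and 10 had fewer. Beside ITGB2, CD44, a hyaluronan receptor, had 6 members against 10 high-support peaks, and CD47, a surface protein that restrains phagocytosis, had 1 against 7. CXCR4, the receptor of the stromal chemokine CXCL12, had 5 members and 5 high-support peaks. Among chemokine genes and receptors, 13 of 22 had a member. CCL2 had 13 members against 4 high-support peaks. The 13 lay in introns of other genes, 311 to 903 kb upstream of CCL2, so that the assignment rests on distance over a domain of 967 kb. Of the 22 genes, 9 had more low-support than high-support MM.1S-only peaks and 5 had fewer.

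Among hypoxia and angiogenic factors, 13 of 20 genes had a member, 8 had more members than high-support peaks and 8 had fewer. KDR, a receptor of VEGF, had 5 members and 0 high-support peaks. The member at its promoter, 690 bp wide at support 5 on chromosome 4 from 55125864 to 55126553, was the only MM.1S peak there. HGF, the hepatocyte growth factor, had 7 members against 2 high-support peaks. VEGFA itself had 5 members against 4 high-support and 27 shared peaks, the nearest member 39.3 kb downstream. NRP1, a coreceptor of VEGF, had 3 members against 6, PDK1, a kinase that restrains pyruvate oxidation, 2 against 7, and SLC2A1, a glucose transporter, 0 against 3.

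Genes of the plasma cell, the cell type from which myeloma arises, and of B cells had members as well. Over all MM.1S peaks the domain of PRDM1, the plasma cell master regulator, held 44, that of IRF4 22 and that of XBP1 8. Of 20 plasma cell markers 14 had a member, 8 had more members than high-support peaks and 9 had fewer. Of 20 B cell genes 17 had a member, and 8 had more and 8 fewer. CD38, a surface enzyme of plasma cells, had 4 members of support 3, 6, 4 and 4 and no high-support peak. IRF4, the plasma cell factor on which myeloma depends, had 6 members against 3 high-support peaks, 4 of the 6 at support 3. PRDM1 had 6 against 13, SDC1, the surface proteoglycan CD138, 1 against 4 and XBP1 0 against 1. SLAMF7, a surface receptor of plasma cells, had 3 members against 2 high-support peaks. Among these members, those at 2.17 and 2.70 kb from its canonical start site had support 3. SPIB, an ETS factor of B cells, had a member of support 6 at its start site on chromosome 19 from 50418877 to 50419525, the only MM.1S peak at its promoter. CD22, an inhibitory B cell receptor, had a member as its only MM.1S promoter peak, but at another annotated start site, upstream of the canonical one. The nearest CD22 member stood at -10.013 kb from the canonical start site. BACH2, a repressor of plasma cell fate, had 4 members against 8 high-support peaks. Of the BCL2 family, 9 of 16 genes had a member, 4 had more members than high-support peaks and 5 had fewer. BCL2 itself, a survival protein, had 2 members against 11 high-support peaks, and MCL1, a survival protein of plasma cells, had neither a member nor a high-support peak in its domain. Of 16 genes that the study named, 13 had a member, 4 had more members than high-support peaks and 8 had fewer. Most members were at FOXO3 with 8, CD93 with 7 and PPP3CA with 6, of which only PPP3CA is named in the running text of the study.

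Markers of the stromal cells were looked at because HS5 cells shared the chamber in CO. The study sorted the MM cells as CD90-negative and CD38-positive before the assay, which removes most stromal cells, and noted that a small remainder of HS5 cells was left after the sort. Of 26 stromal marker genes, 19 had a member, 7 had more members than high-support peaks and 11 had fewer, with 60 members and 59 high-support peaks in all. COL1A2, a chain of type I collagen, had 6 members and no high-support peak, COL5A1 had 8 against 2 and COL6A1 had 8 against 3. In the other direction THY1, which encodes CD90, had 5 against 10, CCN2 had 4 against 7, CALD1 1 against 4, TWIST1 2 against 4 and LOX 0 against 3. LOXL2 had a member as its only MM.1S promoter peak, but at another annotated start site, 83.9 kb downstream of the canonical one. Over the whole list the share of MM.1S-only peaks in these domains was 0.484% at support 3, 0.330% at support 4, 0.786% at support 5 and 0.388% at support 6, and 0.596%, 0.326% and 0.467% at support 7, 8 and 9. The 95% Wilson intervals of all 7 shares overlapped, from 0.314 to 0.747% at support 3 and from 0.331 to 0.659% at support 9. The part of stromal DNA in single members was not tested.

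The number and the width of the MM.1S-only peaks followed support closely. There were 4130 at support 3, 3027 at support 4, 2545 at support 5 and 2321 at support 6, then 2518 at support 7, 3679 at support 8 and 6850 at support 9. Median width rose with every value, being 297, 329, 368 and 397 bp from support 3 to 6 and 443, 512 and 653 bp from support 7 to 9. Just inside the limit of the selection, at support 6, the median was 397 bp and 25.3% were at a promoter, and just outside it, at support 7, these were 443 bp and 28.2%. Width and support come from the same peak calls, so neither was tested. Of the 19585 MM.1S peaks of support 3 to 6, members made up 61.4%, whereas 25.5% of the peaks of support 7 to 9 were MM.1S-only. The part that the limit of 3 RPMI8226 libraries plays in these shares was not tested.

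**Figure D2:**
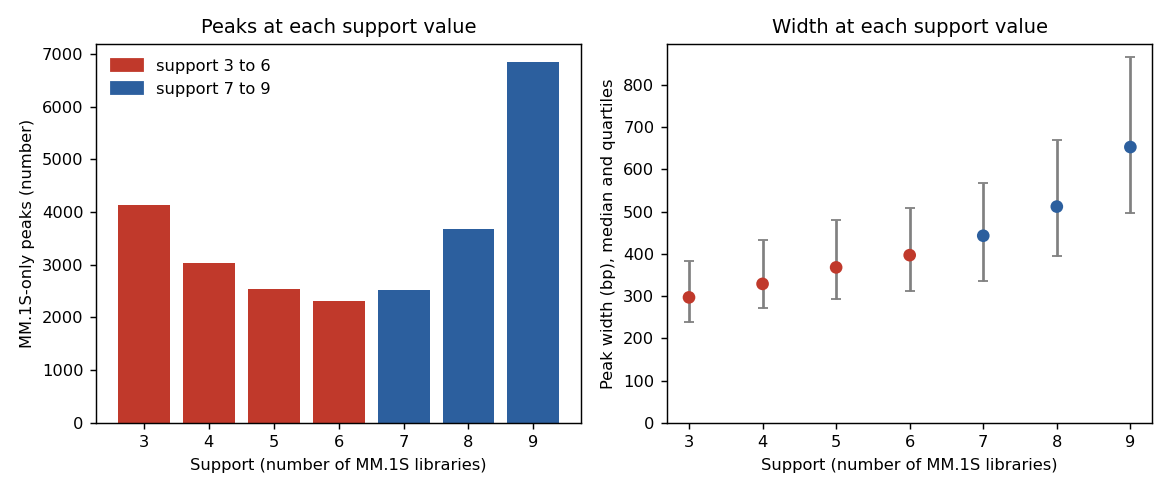
Number (left) and width in bp (right) of MM.1S-only peaks at each support value, the number of MM.1S libraries holding the peak. Bars are counts, points are medians and whiskers run between the quartiles. Red marks support 3 to 6 and blue 7 to 9. Median width rises from 297 bp at support 3 to 653 bp at support 9.

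Members were at a promoter less often than high-support peaks and lay more often in introns and between genes. At a promoter were 25.5% of the members and 36.3% of the high-support peaks, an odds ratio of 0.601 (95% confidence interval 0.558 to 0.648, adjusted p = 5.7e-12, n = 22 chromosomes), and the share was lower on 22 of 22. Counting only protein-coding start sites, the shares were 11.7% and 20.5% (odds ratio 0.517). Intergenic peaks made up 28.8% against 22.9% (odds ratio 1.36, 1.30 to 1.42, adjusted p = 5.7e-12, n = 22 chromosomes), and again 22 of 22 went the same way. For introns the shares were 42.1% and 37.6% (odds ratio 1.21, 1.15 to 1.26, adjusted p = 2.3e-08, n = 22 chromosomes), but with log2 width in the model the intron odds ratio was 0.948 (adjusted p = 0.150). Exonic peaks, 3.62% against 3.21%, did not pass the test (odds ratio 1.13, 0.979 to 1.31, adjusted p = 0.0914, n = 22 chromosomes). Their call depended on the rules, as the odds ratio was 1.28 (adjusted p = 0.00042, n = 22 chromosomes) when a shared peak had to overlap by 50% and 0.868 (adjusted p = 0.0282) with protein-coding start sites alone. The members' median distance to a protein-coding start site was 30.2 kb, with 38.7% over 50 kb away, and that of high-support peaks was 22.7 kb, with 33.8% over 50 kb. Against low-support shared peaks, whose median distance was also 30.2 kb, the promoter and intergenic differences turned direction. At a promoter were 25.5% of members and 23.3% of those peaks (odds ratio 1.13, 1.05 to 1.21, adjusted p = 0.0046, n = 22 chromosomes, 11 in this direction). Intergenic were 28.8% and 31.6% (odds ratio 0.875, 0.825 to 0.929, adjusted p = 0.00051, n = 22 chromosomes). Intron shares were 42.1% and 42.3%. All tests were logistic or linear models across the peaks, two-sided, with errors clustered by chromosome, so that n is the number of chromosomes and not of cultures.

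Among the members themselves, location varied little with support. The promoter share was 24.4, 25.8, 27.1 and 25.3% from support 3 to 6, against 28.2, 33.1 and 41.0% from support 7 to 9. Intergenic shares were 28.9, 29.0, 27.9 and 29.2%, against 27.5, 24.6 and 20.3%.

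**Figure D3:**
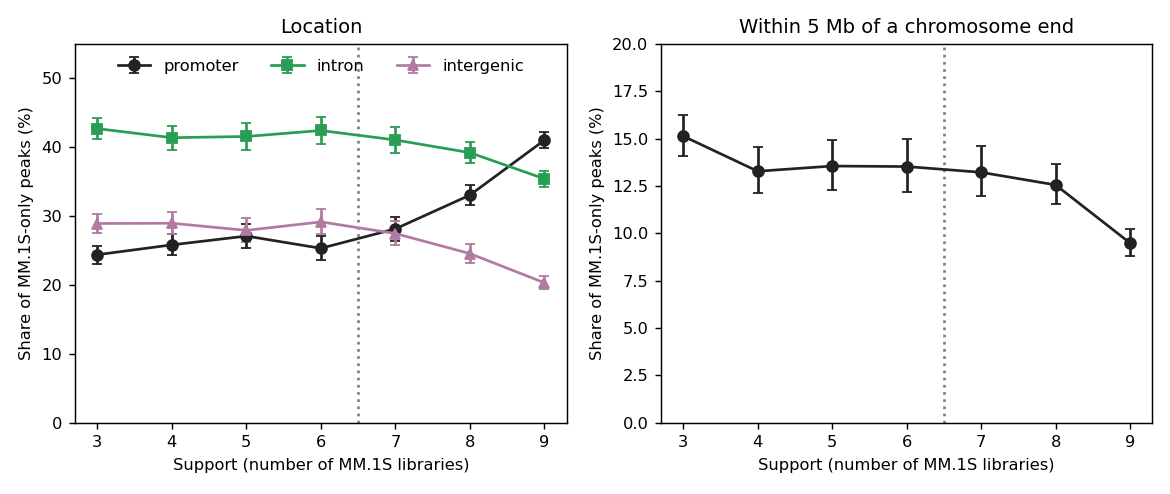
Share of MM.1S-only peaks in % by location (left) and within 5 Mb of a chromosome end (right) at each support value. Points are shares, whiskers 95% Wilson intervals, and the dotted line separates the members (support 3 to 6) from high-support peaks. The promoter share stays between 24.4 and 27.1% in the members and reaches 41.0% at support 9.

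The promoter difference moved with peak width, which is itself tied to support. Among peaks of 300 to under 400 bp, 25.1% of 3532 members and 23.7% of 2038 high-support peaks were at a promoter. At 200 to under 300 bp the shares were 22.6% and 23.3%, and at 400 to under 500 bp 26.9% and 29.2%. Only wide peaks stood far apart, with 32.1% of 402 members and 45.1% of 2735 high-support peaks of 700 to under 1000 bp at a promoter. With log2 width in the model the promoter odds ratio was 0.948 (adjusted p = 0.155, n = 22 chromosomes). How far narrow calls and location depend on each other was not tested.

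**Figure D4:**
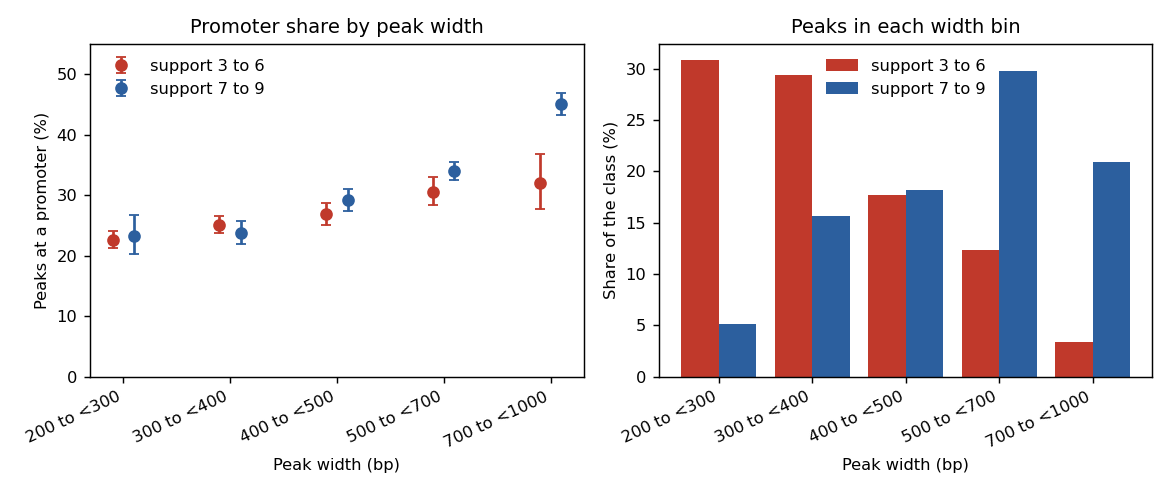
Promoter share in % (left, with 95% Wilson intervals) and share of each class in % (right) by peak width in bp, for members (red) and high-support MM.1S-only peaks (blue). Promoter shares lie close together up to 500 bp and separate at 700 to under 1000 bp, at 32.1% against 45.1%.

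Members held fewer CpG dinucleotides than high-support peaks. The observed over expected CpG ratio, which is high in the CpG islands of many promoters, averaged 0.242 ± 0.199 (SD, n = 12023 peaks) in members and 0.335 ± 0.248 (SD, n = 13047) in high-support peaks, a difference of -0.0924 (adjusted p = 1.3e-16) seen on 22 of 22 chromosomes. GC content was 50.1% against 52.0% (adjusted p = 9.8e-09, n = 22 chromosomes). Among distal peaks alone the GC difference was -0.068 percentage points (adjusted p = 0.749, n = 22 chromosomes), and with log2 width in the model it turned to 0.607. The CpG difference was -0.0354 in distal peaks and -0.0335 with log2 width. Against low-support shared peaks, members held more of both. The CpG ratio was 0.242 against 0.195 (adjusted p = 1.5e-08, n = 22 chromosomes, 22 in this direction). GC content was 50.1% against 48.8% (adjusted p = 4.0e-05, n = 22 chromosomes).

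Members lay near the ends of chromosomes more often than high-support peaks and low-support shared peaks. Within 5 Mb of an end were 14.0% of members (1686 peaks), 11.1% of high-support peaks (1445), 9.81% of low-support shared peaks (742) and 10.6% of high-support shared peaks (4033). The odds ratio was 1.31 against high-support peaks (1.18 to 1.45, p = 2.3e-05, n = 22 chromosomes, 18 in this direction) and 1.50 against low-support shared peaks (1.27 to 1.78, p = 6.4e-05, also 18 of 22). By support the share was 15.1, 13.3, 13.6 and 13.5% from 3 to 6 and 13.2, 12.6 and 9.49% from 7 to 9. The distance of 5 Mb was chosen after the data were seen. Per chromosome, members were between 43.8% (chromosome 6) and 51.7% (chromosome 21) of the MM.1S-only peaks, with a median of 48.2%. Their density ran from 2.30 per Mb on chromosome 13 to 8.46 per Mb on chromosome 19.

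No transcription factor word differed between members and high-support peaks in the comparison as designed, but some did with peak width taken into account. Among 8955 distal members and 8312 distal high-support peaks, 0 of 18 motifs (0%) passed at an adjusted p of 0.05 in the logistic model, and 3 had an unadjusted p under 0.05. The AP-1 word was in 5.82% of members and 5.49% of high-support peaks (odds ratio 1.06, 0.919 to 1.23). By support the AP-1 share was 5.67, 5.39, 5.82 and 6.64% from 3 to 6, and 5.58, 5.60 and 5.37% from 7 to 9. The ATF::CEBP word was in 4.09% and 3.34% (odds ratio 1.23, 1.03 to 1.48, unadjusted p = 0.0265, adjusted p = 0.278, n = 22 chromosomes). The STAT word was rare, in 49 members and 40 high-support peaks, and its interval of 0.690 to 1.88 leaves a wide range of differences possible. For NF-kB the shares were 3.43% and 3.53% (odds ratio 0.972, 0.797 to 1.18). With log2 width in the model 4 of 18 motifs passed, AP-1 at an odds ratio of 0.811 (adjusted p = 0.0211, n = 22 chromosomes) and CTCF at 0.719 (adjusted p = 0.0243) among them. Between support 3 and support 9, without width, 2 passed, and CTCF was at 1.99 (adjusted p = 0.00013, n = 22 chromosomes). In the designed comparison CTCF was at 1.11 (0.909 to 1.37), and under the 50% overlap rule at 0.946. By support its share was 3.30, 2.45, 3.34 and 2.71% from 3 to 6 and 3.15, 3.98 and 1.68% from 7 to 9. The side on which AP-1 fell therefore depended on how width was handled. For CTCF it depended on the support limits and the overlap rule as well.

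Against low-support shared peaks, members differed in AP-1 above all. Here 4 of 18 motifs (22.2%) passed. The AP-1 word was in 5.82% of members and 14.0% of 5802 distal low-support shared peaks (odds ratio 0.381, 0.334 to 0.434, adjusted p = 1.2e-11, n = 22 chromosomes), lower on 22 of 22. The word GAGGAAGT, bound by PU.1-type ETS factors of blood cells, was in 1.94% against 4.43% (odds ratio 0.428, 0.366 to 0.500, adjusted p = 1.8e-09, n = 22 chromosomes). The NF-kB motif, a longer consensus searched in the same way, was in 3.43% against 4.89% (odds ratio 0.690, adjusted p = 2.2e-05, n = 22 chromosomes). The MEF2 motif went the other way, at 3.31% against 2.62% (odds ratio 1.27, adjusted p = 0.0452, n = 22 chromosomes), but did not pass with GC content and width in the model (adjusted p = 0.159), where the E-box CAGCTG did (odds ratio 0.861, adjusted p = 0.0290). Among shared peaks of support 7 to 9 the AP-1 share was 10.9%, so that both classes of MM.1S-only peaks were below both classes of shared peaks. The same held for GAGGAAGT, at 1.89% in high-support peaks and 3.49% in shared peaks of support 7 to 9. It also held for NF-kB, at 3.53% and 4.90%. These 3 differences were thus not particular to the members. All 3 lower motifs kept their direction and their call with GC content and width in the model.

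**Figure D5:**
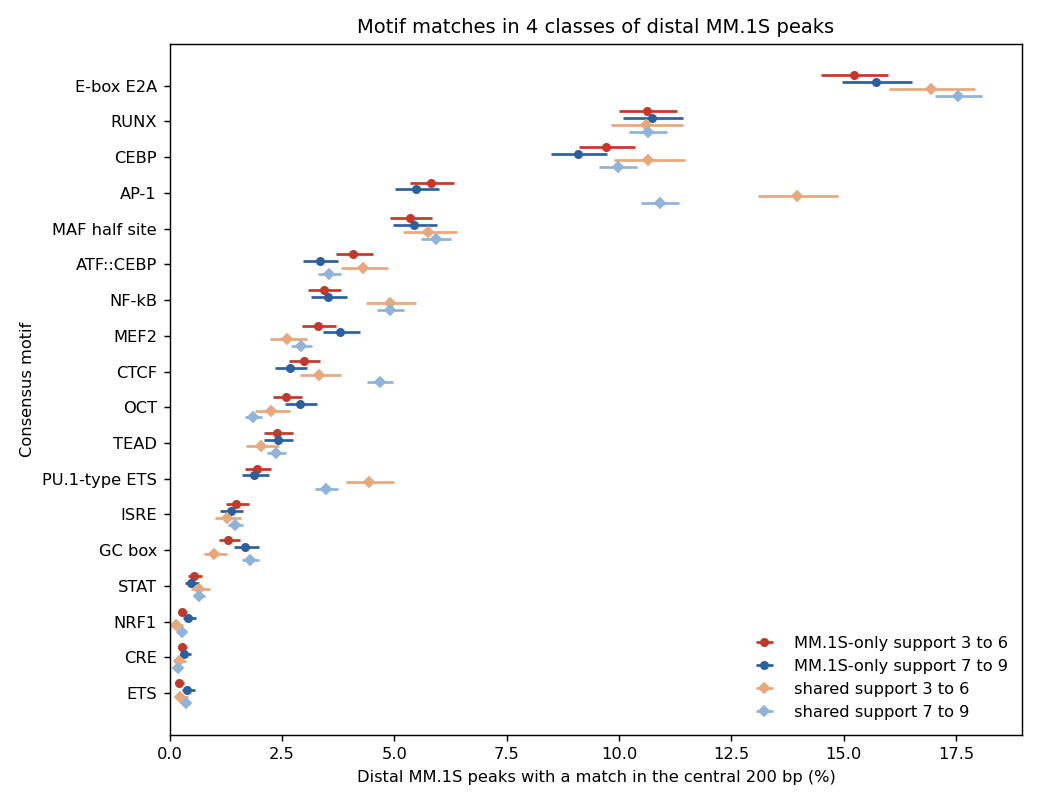
Share in % of distal MM.1S peaks with a motif match in the central 200 bp (x axis) for 18 motifs (y axis) in 4 classes of peaks. Points are shares and whiskers 95% Wilson intervals over peaks, circles are MM.1S-only and diamonds shared with RPMI8226. AP-1 stands at 5.82% in the members (red circles) and 14.0% in low-support shared peaks.

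Along the chromosome, members were somewhat more often followed by members. Support chose the members and also defines the class of a neighbour, so these shares are a description without a test. Where the next MM.1S-only peak along the chromosome was within 10 kb, it was a low-support peak for 51.1% of 2105 members and 44.8% of 2275 high-support peaks, with 17 of 22 chromosomes in that direction. By support the share was 51.3, 52.9, 49.9 and 49.2% from 3 to 6 and 48.7, 47.4 and 41.7% from 7 to 9. Within 10 kb on either side, another low-support MM.1S-only peak stood near 17.6% of members and 15.9% of high-support peaks, and a high-support MM.1S-only peak near 17.1% and 18.9%. A shared peak stood near 38.1% and 36.8%. This too is a description, since overlap with RPMI8226 chose the members and defines a shared peak. Its odds ratio of 1.05 turned direction with the overlap rule and with width. The nearest RPMI8226 peak was a median of 10.4 kb from members and 10.9 kb from high-support peaks, and 458 members (3.81%) had one within 500 bp. Immunoglobulin gene regions held 83 members.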

How the data were processed

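Omni-ATAC libraries of MM.1S (9) and RPMI8226 (5) were grouped by line and culture from the sample titles. By the study's methods and the submitters' notes, the authors aligned reads to hg38 with Bowtie2, dropped multiply mapped and duplicate reads, called peaks with MACS3 (versions not given in the sources used here) and kept peaks found in at least 3 libraries. The deposited lists give chromosome, start, end and 1 whole number, used as support, a unit other than reads with no normalization by the authors and no header. Starts were taken as 0-based and are printed 1-based. The lists give no depth (the study's read totals were not used), and intervals cover counting error over peaks, not cultures. The replicates entered only through the pooled lists.

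Python 3.11.15 with statsmodels 0.14.6 was used. Locations and genes came from GENCODE release 44, with regulatory domains of 5 kb upstream and 1 kb downstream of a start site, extended by up to 1 Mb. Class was tested by logistic or linear models with errors clustered by chromosome and Benjamini-Hochberg adjustment within each family, checked on simulated data. The designed tests on neighbours are given without p-values, since support and overlap with RPMI8226 chose the members and define the class of a neighbour. Motifs were searched in the central 200 bp of distal peaks. The repeat content listed in the design could not be computed from the upper-case reference. The members, gene lists and motifs were chosen with earlier results of these data known. Named genes were those of the 11 lists, the genes with most members in the domain (10) or at the promoter, and those in the densest runs, and runs beyond the 10 longest were named after their values were seen. A gene that this rule named is not reported here. No motif passed against high-support peaks, so the rule gave no sequence to print. Alternatives varied the support limits, overlap rule, promoter window, motif window, neighbour distance and run gap.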

Additional observations from a re-analysis of the deposited data

How the results depend on the processing

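No paired analysis was possible because the lists hold no value for a single library, and for the same reason no replicate could be left out. The lower promoter share became an odds ratio of 0.948 with log2 width as a covariate. The GC difference turned to 0.607 with log2 width and was -0.068 in distal peaks alone. The odds ratio of a shared peak nearby, 1.05 as reported, was 1.04 for support 3 to 5, 1.05 without peaks near an RPMI8226 peak, 0.905 when overlap had to cover at least 50% of both peaks, 0.939 with log2 width, 0.983 within 50 kb and 0.994 in distal peaks. A high-support MM.1S-only peak nearby gave 0.928 within 5 kb, and a low-support peak nearby 1.02 within 50 kb and 1.07 in distal peaks, against 0.886 and 1.14 as computed, values given as a description since support defines both classes. Of 18 motifs, 2 passed for support 3 against 9, 4 with log2 width, 14 in the whole peak, 6 with GC and log2 width, and 3 in the whole peak with log2 width (an alternative chosen after seeing the data, as were those on distal peaks). Wider peaks offer more letters to match, so the whole-peak count is not comparable. Runs of 5 or more members numbered 7 with gaps of up to 10 kb and 158 with gaps of up to 50 kb. Odds ratios of single features turned direction as follows. AP-1 was 0.811 with log2 width, 0.707 in the whole peak and 0.810 with GC and log2 width, all 3 past the threshold, and 0.901 in the whole peak with log2 width. CTCF, 1.11 as computed, was 0.946 under the 50% overlap, 0.897 in the whole peak, and, past the threshold, 0.719 with log2 width, 0.701 with GC and log2 width and 0.721 in the whole peak with log2 width, while support 3 against 9 gave 1.99, also past it. In the whole peak ATF::CEBP was 0.745, past the threshold, and STAT 0.826. The exon share was 0.970 with log2 width, 0.988 for a promoter window of 5000 bp and 0.868 (past the threshold) for protein-coding start sites, was 1.28 and past it under the 50% overlap, and the intron share 0.948 with log2 width. The cause of these changes was not tested. Against high-support peaks, the intergenic share, the CpG ratio and the share near chromosome ends kept direction and call under every alternative run for them. Against low-support shared peaks the intergenic odds ratio was 0.875 and the CpG difference 0.0470, both past the threshold in the opposite direction. With log2 width in the model these were 0.879 and 0.0452. The share near chromosome ends kept its direction there (odds ratio 1.50).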
